A study of Mus musculus with 18 samples.

Results

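Streptozotocin (STZ) is a toxin of the insulin-producing beta cells and is used to make mice diabetic. Alginate oligosaccharide (AOS) is a short sugar chain from brown algae. The comparison described here is that of STZ-A10 with A10, which asks what STZ changes in the spleen of animals that all received AOS. The members are the 6 spleen libraries of these groups, out of 18 libraries in 6 groups, and they were taken by the treatment given in the sample labels. A10 mice received AOS at 10 mg/kg, and STZ-A10 mice received STZ together with AOS at 10 mg/kg. Both groups are ICR mice, an outbred strain, aged 10 weeks, and the study used males. Each group has 3 libraries, numbered as replicates 1 to 3. The route and the length of AOS dosing in these groups are not given in the sources used here, nor is whether each library is a separate animal, so p-values measure the spread between these libraries. STZ was also given without AOS. That pair, STZ against Con (mice labelled as control, of the same strain and age, 3 libraries each), shares no library with STZ-A10 and A10 and is set beside them. STZ enters cells by a glucose transporter and damages DNA, so that a direct action on splenic cells and an action through the loss of insulin cannot be told apart in this design.

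The spleen holds B and T cells in its white pulp and macrophages in its red pulp, where aged red cells are taken up and their iron is returned to the blood. Insulin holds down the genes with which cells burn fat, and these genes are known to be raised in fasting and in diabetes. Glucose raises the gene Txnip. Glucocorticoids, the stress hormones of the adrenal gland, raise a known group of genes in lymphocytes and other cells and induce the clock gene Per1.

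Levels were deposited for 19320 genes as RPKM, which scales reads to the length of the gene and to the mapped reads of the library. A gene was tested if it reached 1 RPKM in at least 3 of the 6 libraries, which left 12467. Between 12226 and 12558 genes reached 1 RPKM in a library. Across genes, log2 levels of any pair of libraries of a group had an r of 0.987 to 0.988 in A10 and 0.974 to 0.990 in STZ-A10. The first principal component of the 6 libraries held 52.0% of the variance and put the groups on opposite sides of 0, and the second (23.4%) set STZ-A10 replicate 1 apart from the rest. Globin genes (6 in all) took 17.2% to 25.7% of all RPKM in A10 and 13.7% to 36.2% in STZ-A10. The markers of spleen were present: Pax5 of B cells, Cd3e of T cells, Vcam1 of red pulp macrophages and Tlx1 of splenic stroma were all tested. The insulin genes Ins1 and Ins2 were listed at 0 in every library, so the deposited spleen values hold no check of the loss of beta cells.

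Levels are given below in RPKM in the order of replicates 1, 2 and 3, with the A10 libraries named first and the STZ-A10 libraries after them. Of the 12467 genes, 66 passed the threshold of an adjusted p under 0.05 (limma, Benjamini-Hochberg), 36 higher and 30 lower in STZ-A10. These are 0.289% and 0.241% of the genes tested. Their log2 fold changes, which here and below are differences of mean log2(RPKM + 1), ran from -2.05 to 6.60, and for 41 of them the size was at least 1. Of the 66, 11 were under 1 RPKM in all libraries of 1 group, 9 of them in A10 and 2 in STZ-A10, so that they passed the filter on low values only through the group where they were higher. In all 66 every STZ-A10 library lay beyond every A10 library. Of all genes tested, 7.58% lay apart in this way with STZ-A10 higher and 14.9% with STZ-A10 lower. Before adjustment 645 genes (5.17%) had a p under 0.05 with STZ-A10 higher and 1323 (10.6%) with STZ-A10 lower. The median log2 fold change of all genes was -0.03, with 5290 higher and 7177 lower. Counts of list members below are to be read against these shares of all genes. The number of calls rested on single libraries, being 3 without A10 replicate 3, 4 without STZ-A10 replicate 3, 27 without STZ-A10 replicate 2 and 1105 without STZ-A10 replicate 1, the library that the second component set apart. In each of these fits all 66 genes kept their direction, as groups that lie apart must when a library is left out. All 66 also kept an unadjusted p under 0.05 (limma), but they were chosen by p in these same libraries. Neither is further support for the calls.

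Of the 36 genes that rose, 12 are on a list of exocrine pancreas genes, whose RNA is foreign to the spleen. The other 24 include fuel genes (Pdk4, Acot1, Txnip), genes that glucocorticoids induce (Errfi1, Mt2, Per1), and Ier3, Ctgf, Clca3a1, Cyp4b1, Agtr1a, Ccl24, Map3k6, Peg3, Hpn and Cdc42ep4, together with 5 more genes made by the pancreas and 3 gene models without a known role. The 30 genes that fell include B cell and germinal centre genes (Fcer2a, Gcsam, Mef2b, Nuggc), chemokines (Ccl5, Cxcl9), the macrophage gene Retnla, complement factor B (Cfb), the vessel adhesion molecule Madcam1, and the matrix and growth factor genes Postn and Igfbp2. The others that fell are Ass1, Il4i1, Lgals1, Tmed5, Aif1, Epcam, the costimulatory ligand Tnfsf9, the tubulins Tuba1a and Tubb2b, the signalling adaptor Dok2, and Acot7, Phlda1, Basp1, Pon3, Cd300c, Chst10, Lbhd2, Pimreg and a gene model.

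**Figure D1:**
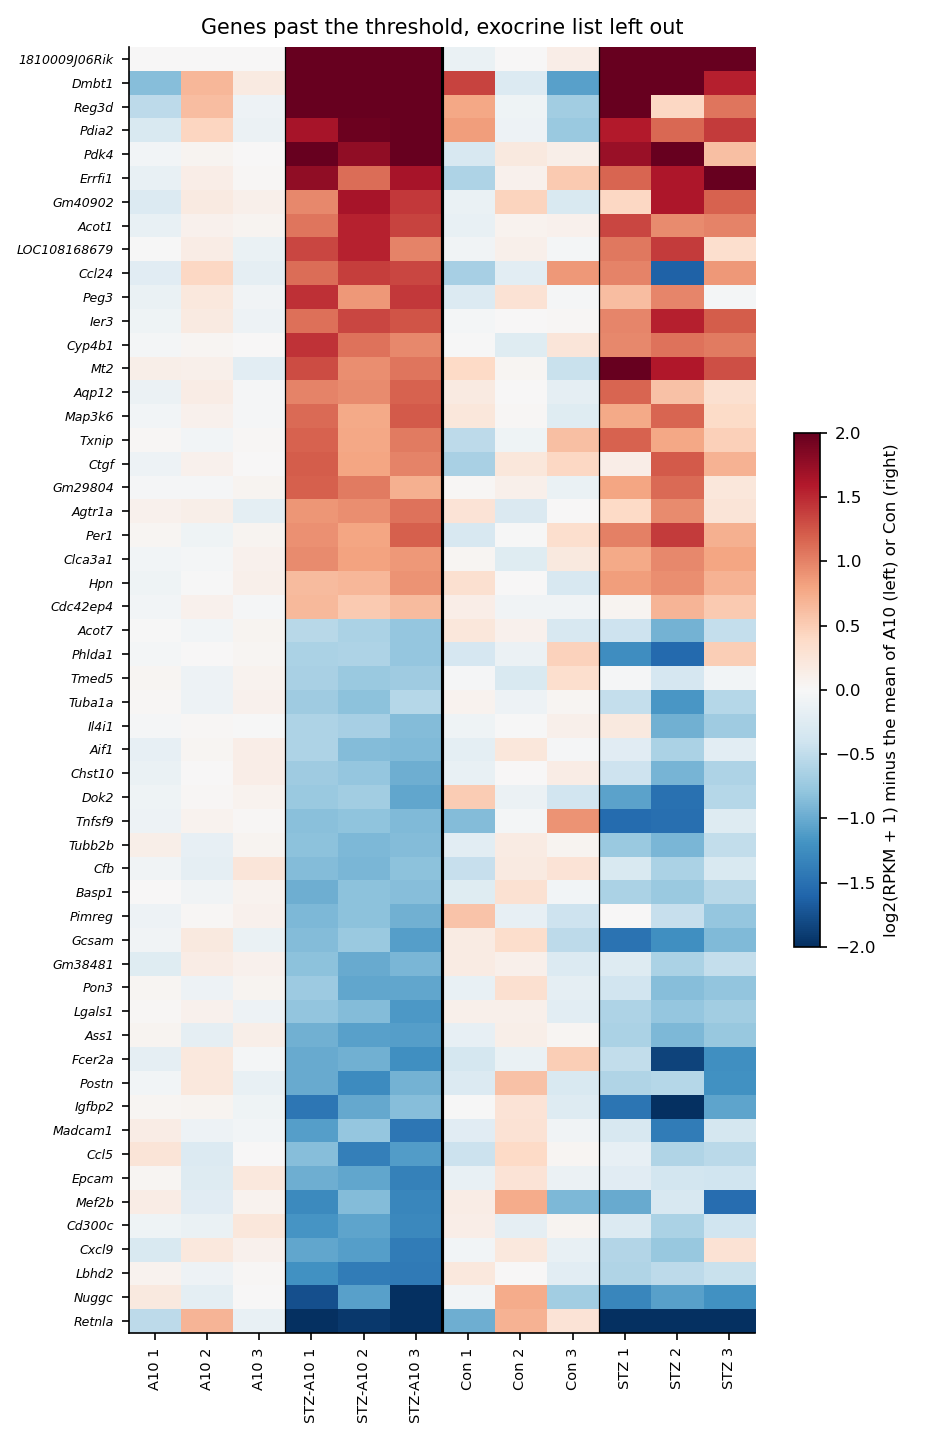
The 54 genes past the threshold in STZ-A10 against A10 that are not on the exocrine pancreas list, 1 row each, ordered by log2 fold change. Color gives log2(RPKM + 1) of each library minus the mean of the A10 libraries (left 6 columns) or of the Con libraries (right 6 columns), and it saturates at 2 in either direction. The 3 STZ-A10 columns carry the same color within nearly every row, which is how the rows were chosen, and the STZ columns show the same genes in mice that had no AOS.

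Among the fuel genes, Pdk4 had the smallest adjusted p of all genes. Pdk4 (chr6:5483351-5496309, minus strand) encodes pyruvate dehydrogenase kinase 4, which closes the entry of glucose carbon into mitochondrial oxidation. It was 2.67, 2.97 and 2.86 RPKM in the A10 libraries and 14.7, 12.1 and 15.3 in the STZ-A10 libraries. The groups lay far apart, and the log2 fold change was 1.97 (SE 0.114, adjusted p 0.00312 by limma). Pdk4 passed the threshold under 16 of 16 alternative settings. Acot1 (chr12:84009490-84018371, plus strand), a thioesterase that releases fatty acids from coenzyme A, was 1.38, 1.82 and 1.75 in A10 and 4.53, 6.68 and 5.72 in STZ-A10, which differ by 1.32 on the log2 scale (SE 0.149, adjusted p 0.0239). Near copies of Acot1 lie beside it in the genome, so its level may hold reads of its relatives.

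The fatty acid carrier Cd36 was 70.1, 78.1 and 80.3 in A10 and 102, 96.9 and 102 in STZ-A10 (adjusted p 0.108). On the list of 29 genes of fatty acid oxidation and of targets of the PPAR receptors, 24 were tested. Their median log2 fold change was 0.08, 2 passed the threshold (Pdk4 and Acot1), and at an unadjusted p under 0.05 there were 7 higher and 1 lower. No other gene of the list passed. Cpt1a, the mitochondrial gate for fatty acids, was 26.1, 25.8 and 25.7 against 29.6, 37.3 and 30.4 (adjusted p 0.224).

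Txnip, thioredoxin-interacting protein, restrains glucose uptake. It was 158, 149.9 and 159 RPKM in A10 and 355, 267 and 322 in STZ-A10, so that the 3 A10 libraries lay close together and well below every STZ-A10 library. The log2 fold change was 1.00 (SE 0.118, adjusted p 0.025). Its relative Arrdc4, also known as a glucose-responsive gene, was 7.1, 7.31 and 7.65 in A10 and 11.8, 10.6 and 11.9 in STZ-A10, with an adjusted p of 0.056. Of 25 genes tested on the glycolysis list only Txnip passed, and the median was -0.08, with 3 higher and 5 lower at an unadjusted p under 0.05. Hk2, a hexokinase, was 2.79, 2.46 and 3.19 against 2.2, 1.82 and 1.5 (log2 fold change -0.43, adjusted p 0.202), and Pfkp, a phosphofructokinase, was 27.1, 24.6 and 28.7 against 23.5, 17.7 and 13.4 (-0.57, adjusted p 0.206).

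The Txnip promoter is shown because the known route from glucose to this gene runs through a paired element there, read by the factors MondoA and ChREBP. The sequence is from RefSeq (GRCm38.p6, chr3:96557707-96558006, plus strand, 250 bases before the start site and 50 after). Capitals mark the fixed letters of the match to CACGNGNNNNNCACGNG, searched on both strands.
Txnip: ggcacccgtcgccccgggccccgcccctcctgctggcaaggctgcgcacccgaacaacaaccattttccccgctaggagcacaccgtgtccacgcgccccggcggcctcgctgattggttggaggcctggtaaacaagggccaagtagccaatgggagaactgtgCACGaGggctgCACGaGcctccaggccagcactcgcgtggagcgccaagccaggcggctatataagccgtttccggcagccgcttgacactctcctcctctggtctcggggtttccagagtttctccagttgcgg
The pair begins 85 bases before the start site. Of 9812 tested genes with a promoter in the table, 9 (0.0917%) held this pattern, and of all 32851 promoters 0.0487%. The Arrdc4 promoter did not hold the pair. It held a lone CACGTG (minus strand, with 8 bases on either side below), a short sequence found in 11.5% of tested genes.
Arrdc4 chr7:68749418-68749439: gtcctgtgCACGTGcactatgg
A match of letters describes the sequence and was not tested as a site of binding.

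**Figure D2:**
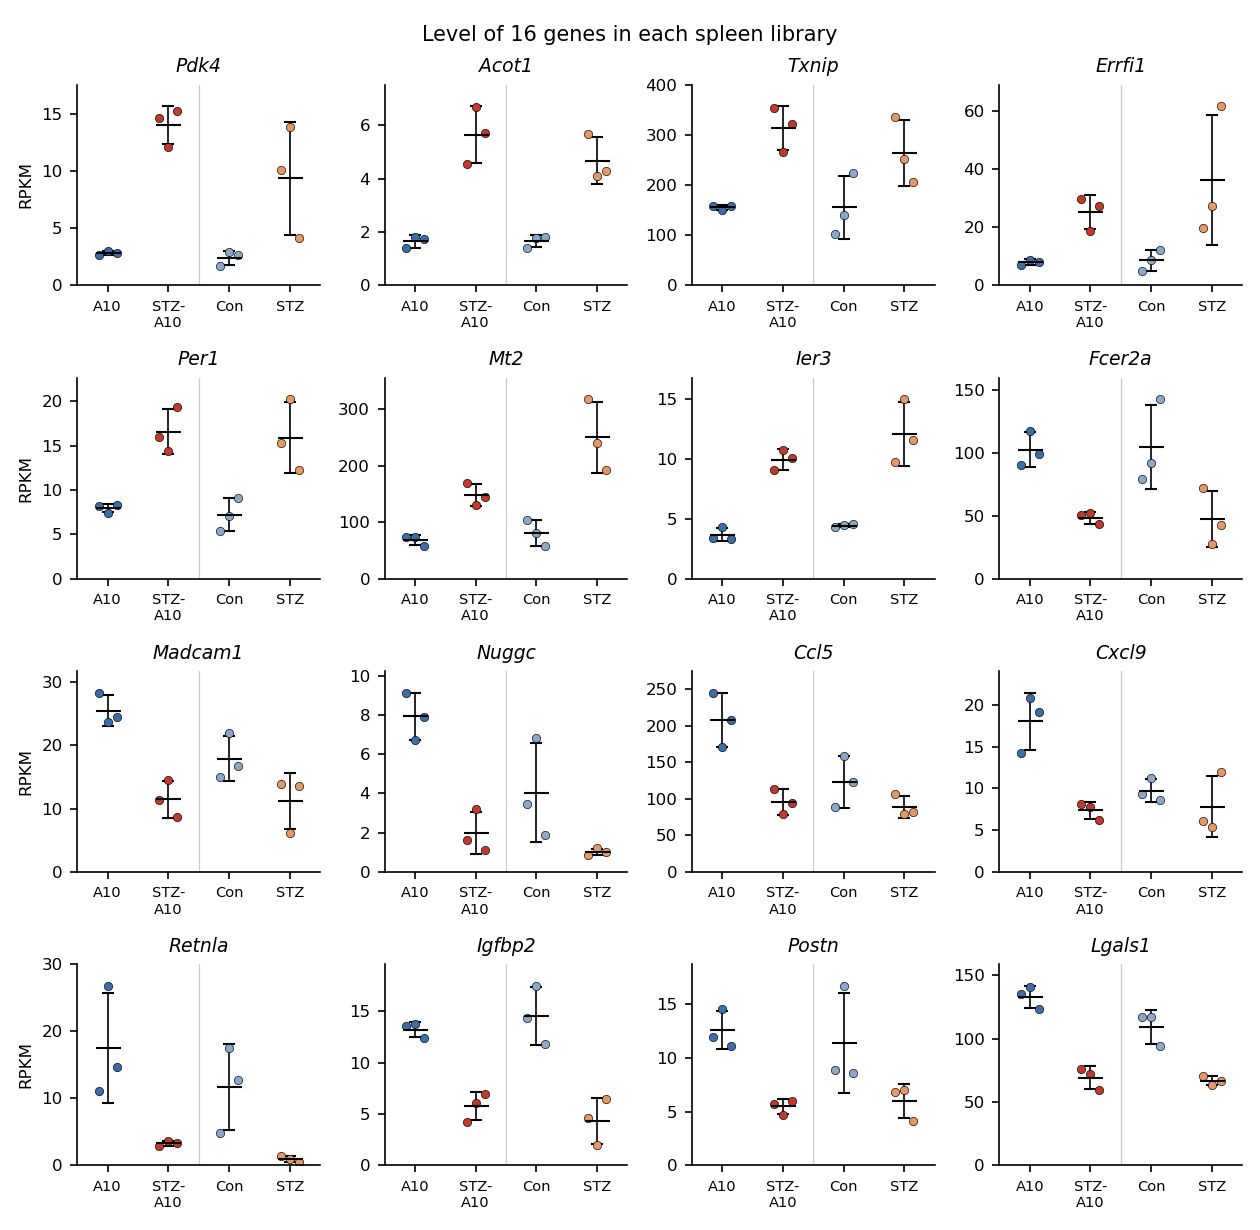
Levels in RPKM (linear axes from 0) of 16 genes past the threshold, with a point for each library and a bar for the mean and SD of the 3 libraries of a group. In each panel A10 and STZ-A10 stand left of the grey line and Con and STZ right of it. A10 and STZ-A10 do not overlap in any panel, while Con and STZ overlap for genes such as Txnip and Cxcl9.

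Genes that glucocorticoids induce had the highest median of all lists after that of the exocrine pancreas. Of 30 listed, 27 were tested, and 25 were higher in STZ-A10. The median was 0.59, and at an unadjusted p under 0.05 there were 17 higher and 1 lower, against 5.17% and 10.6% of all genes. After adjustment 3 passed, all higher.

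Errfi1, a feedback inhibitor of the EGF receptor, was 7.05, 8.84 and 8.11 in A10 and 29.8, 18.5 and 27.2 in STZ-A10 (log2 fold change 1.52, SE 0.177, adjusted p 0.025). Mt2, a metallothionein that binds zinc, was 73.8, 72.8 and 58.5 against 169, 131 and 144 (log2 fold change 1.10, adjusted p 0.025). Per1 was 8.17, 7.41 and 8.32 against 16, 14.4 and 19.4 (log2 fold change 0.96, adjusted p 0.027). In each of these 3 genes the lowest STZ-A10 library was well above the highest A10 library.

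Other members lay apart in the same direction without passing. Ddit4, an inhibitor of the growth kinase mTORC1, was 35.3, 32.9 and 30.3 against 64.4, 50.5 and 52.1 (adjusted p 0.0504). Tsc22d3, also called GILZ, an anti-inflammatory target of the receptor, was 69.8, 67.9 and 71.8 against 116, 97.6 and 94.9 (adjusted p 0.0682). Fkbp5, a chaperone of the receptor, was 11.8, 10.6 and 11.6 against 39.8, 18.2 and 24.8 (adjusted p 0.0989), with STZ-A10 replicate 1 the highest. These are among the genes that are most used to read glucocorticoid action, and their differences missed the threshold once all genes were corrected for. Klf9 was 3.55, 4.46 and 3.9 against 12.6, 7.59 and 8.76, Mt1 was 104, 98.7 and 85.3 against 231, 145 and 248, and Cdkn1a, a cell cycle inhibitor that is also a p53 target, was 7.69, 9.03 and 8.2 against 12.2, 13.8 and 17.3 (adjusted p 0.0595, 0.0719 and 0.0738). The median of the list was 0.48 without STZ-A10 replicate 1 and 0.73 without STZ-A10 replicate 2. The receptor core ACANNNTGT was found in the promoters of 4 of the 24 listed genes with a promoter, and in 5.24% of tested genes. They were Sgk1, Mt1, Fam107a and Slc10a6. Of the other lists searched, it was found in 1 of 24 glycolysis genes (Txnip) and 1 of 18 fatty acid oxidation genes (Acot1). It was found in 0 of 21 plasma cell and ER genes, 0 of 19 heat shock genes and 0 of 14 clock genes.

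Clock genes gave a mixed picture. Of 17 tested, Per1 passed. At an unadjusted p under 0.05 there were 8 higher and 1 lower, and the median was 0.17. Nr1d1, the repressor REV-ERB alpha, was 5.68, 6.09 and 3.15 in A10 and 12.7, 12.9 and 7.6 in STZ-A10 (log2 fold change 1.02, adjusted p 0.142). Cry2, a partner of the PER proteins, was 3.76, 3.81 and 3.56 against 5.94, 5.45 and 5.34 (adjusted p 0.0841). Arntl, the activator BMAL1 that stands in opposite phase to Nr1d1, was 8.53, 8.63 and 9.18 against 7.88, 6.59 and 6.82 (log2 fold change -0.28, adjusted p 0.243). The hour of killing is not given in the sources used here.

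Ier3, an immediate early gene that protects cells from death, rose from 3.41, 4.3 and 3.32 in A10 to 9.04, 10.7 and 10.1 in STZ-A10 (log2 fold change 1.23, SE 0.121, adjusted p 0.0147). It was the only member of the immediate early list to pass. That list had a median of -0.04 over 27 tested genes, with 5 higher and 4 lower at an unadjusted p under 0.05. Klf10, induced by TGF-beta, was 9.17, 10.1 and 10.4 against 13.6, 13.8 and 14.7 (adjusted p 0.0789).

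Several further genes rose whose known roles are in vessels, stroma and detoxification. Clca3a1 (33.1 to 36.8 RPKM in A10 and 60.7 to 67.2 in STZ-A10) is expressed by lymphatic and stromal cells. The difference was 0.87 on the log2 scale (SE 0.0859, adjusted p 0.0147). Cyp4b1, a cytochrome P450, was 4.18, 4.47 and 4.4 against 13.6, 10.3 and 9.44 (log2 fold change 1.17). Agtr1a, the angiotensin II receptor of smooth muscle and pericytes, was 10.9, 11.1 and 8.72 against 19.6, 20.2 and 22.6 (0.96). Ctgf, a matrix protein induced by TGF-beta and by YAP, was 18.3, 20.9 and 19.8 against 46.7, 34.6 and 39.8 (0.99). In these 3 genes the groups lay apart with STZ-A10 higher. Their adjusted p were 0.025, 0.025 and 0.0255. Map3k6, a stress kinase, was 0.71, 0.88 and 0.74 against 2.88, 2 and 3.15 (1.04). Peg3, an imprinted gene, stood near the floor of the scale in A10, at 0.44, 0.83 and 0.5, and was 3.37, 1.88 and 3.21 in STZ-A10. Map3k6 and Peg3 passed the filter on low values only through STZ-A10, so that their calls are no support for a difference.

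The lymphoid genes past the threshold were lower in STZ-A10. In whole spleen, fewer cells of a type and less RNA per cell cannot be told apart. Fcer2a (chr8:3681737-3694175, minus strand) encodes CD23, the low-affinity IgE receptor of mature B cells and follicular dendritic cells. It was 90, 117 and 99.2 RPKM in A10 and 50.3, 51.9 and 42.9 in STZ-A10, which differ by -1.06 on the log2 scale (SE 0.124, adjusted p 0.025). The general B cell genes did not move as far. Of 20 tested, 17 were lower, against 7177 of all 12467 genes. Their median was -0.19, and only Fcer2a passed. Pax5, the factor that sets B cell identity, was 62.2, 65.3 and 71.4 against 73.3, 50.1 and 47.4 (log2 fold change -0.24, adjusted p 0.531). The median of the B cell list depended on STZ-A10 replicates 1 and 3, being -0.37 without the first and -0.04 without the other.

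The germinal centre is the part of the follicle where B cells divide and mutate their antibody genes, and 3 of the genes that fell are known from it. Nuggc, a nuclear GTPase of germinal centre B cells, was 9.16, 6.75 and 7.93 in A10 and 1.62, 3.2 and 1.11 in STZ-A10 (log2 fold change -1.64, SE 0.247, adjusted p 0.0437). Mef2b, a factor upstream of Bcl6, was 13.4, 10.1 and 12.5 against 4.33, 6.11 and 4.23 (-1.15, adjusted p 0.0356). Gcsam, which restrains the movement of these cells, was 10.7, 13.1 and 10.2 against 5.74, 6.34 and 4.74 (-0.90, adjusted p 0.0437). All A10 libraries lay above all STZ-A10 libraries.

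For 4 further germinal centre genes the values were looked up after these were seen, so their choice is not independent. Mybl1 was 10.4, 9.66 and 11.7 in A10 and 2.87, 5.69 and 2.64 in STZ-A10, and Rgs13 was 7.21, 12.5 and 10.6 against 2.58, 4.54 and 3.71 (adjusted p 0.0613 and 0.0662). S1pr2, which keeps B cells inside the germinal centre, was 12.1, 10.2 and 12.8 against 7.09, 8.14 and 4.33 (adjusted p 0.146). Bcl6, the master factor, was 18, 17.5 and 19.4 against 15, 13.1 and 11.6 (adjusted p 0.133). None of these 4 passed, and in each the groups did not overlap. Of 36 cell cycle and replication genes, which in whole spleen do not read germinal centre cells alone, 0 had an unadjusted p under 0.05 (limma). Their median was -0.01, ran from -0.152 to 0.256 and changed sign under 6 of 16 alternative settings. The list summed to 1956, 2053 and 1819 RPKM in A10 and 1350, 2362 and 2326 in STZ-A10.

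T cell and natural killer (NK) cell genes were lower too. Ccl5, a chemokine stored by cytotoxic T and NK cells, was 246, 171 and 208 in A10 and 114, 79.1 and 94.4 in STZ-A10 (log2 fold change -1.11, SE 0.171, adjusted p 0.049). It was the only gene to pass of the 20 NK and cytotoxic genes, all 20 of which were lower. Their median was -0.66, and 13 had an unadjusted p under 0.05, against 10.6% of all genes. Without any single library the median stayed between -0.71 and -0.52. Summed over the list, the level was 443, 343 and 453 RPKM in A10 and 262, 184 and 215 in STZ-A10. The exact permutation test gives p = 0.1, the smallest that 3 against 3 can give.

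Klra4, an NK receptor, was 3.51, 3.43 and 5.45 in A10 and 1.85, 1.01 and 1.64 in STZ-A10. Eomes, a factor of NK and memory CD8 cells, was 3.66, 3.4 and 4.17 against 1.85, 1.71 and 2.37. Nkg7, a granule protein, was 54, 40.5 and 47.3 against 33.4, 24.2 and 24.6, and the granzyme Gzma was 33.1, 33.7 and 61.4 against 25.1, 12 and 21.8. Their adjusted p were 0.0738, 0.0738, 0.0852 and 0.183, so that each missed the threshold with non-overlapping groups. The granzyme was highest in A10 replicate 3.

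Of 27 T cell genes tested, 25 were lower, against 7177 of all 12467 genes. Of the 27, 18 were lower with an unadjusted p under 0.05, against 10.6% of all genes, and 0 passed after adjustment (limma). The median was -0.42, or -0.55 without STZ-A10 replicate 1 and -0.30 without STZ-A10 replicate 3. In STZ against Con 2 of the 27 were lower with such a p, against 4.63% of all genes. The T cell receptor subunit Cd3g was 95.5, 94.2 and 89 in A10 and 63.7, 41.3 and 41.4 in STZ-A10 (adjusted p 0.0662). The helper cell coreceptor Cd4 was 51.8, 51.1 and 55.9 against 36.9, 34.6 and 27.1 (adjusted p 0.0682), and Cd28, the costimulatory receptor, was 17.8, 13.1 and 16.1 against 10.2, 8.64 and 7.57 (adjusted p 0.0738). In both Cd3g and Cd4 the STZ-A10 library nearest to A10 was replicate 1, the library that the second principal component set apart.

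Madcam1 (chr10:79664559-79668537, plus strand), an adhesion molecule that lines the marginal sinus around the white pulp, was 28.4, 23.7 and 24.4 in A10 and 11.3, 14.5 and 8.68 in STZ-A10 (log2 fold change -1.11, SE 0.172, adjusted p 0.0497). It was the only endothelial gene of 24 tested to pass. The list had a median of 0.16 with 19 of 24 higher, so Madcam1 went against its list. The chemokines that lay out the white pulp did not pass. Cxcl13, which draws B cells, was 288, 250.3 and 268 against 209, 196 and 127, and Ccl19, which draws T cells, was 192, 205 and 158 against 141, 127 and 88 (adjusted p 0.186 and 0.175). Cxcl12, made by red pulp stroma, was 192, 249 and 221 against 388, 281 and 285 (log2 fold change 0.52, adjusted p 0.193), with every STZ-A10 library above A10.

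**Figure D3:**
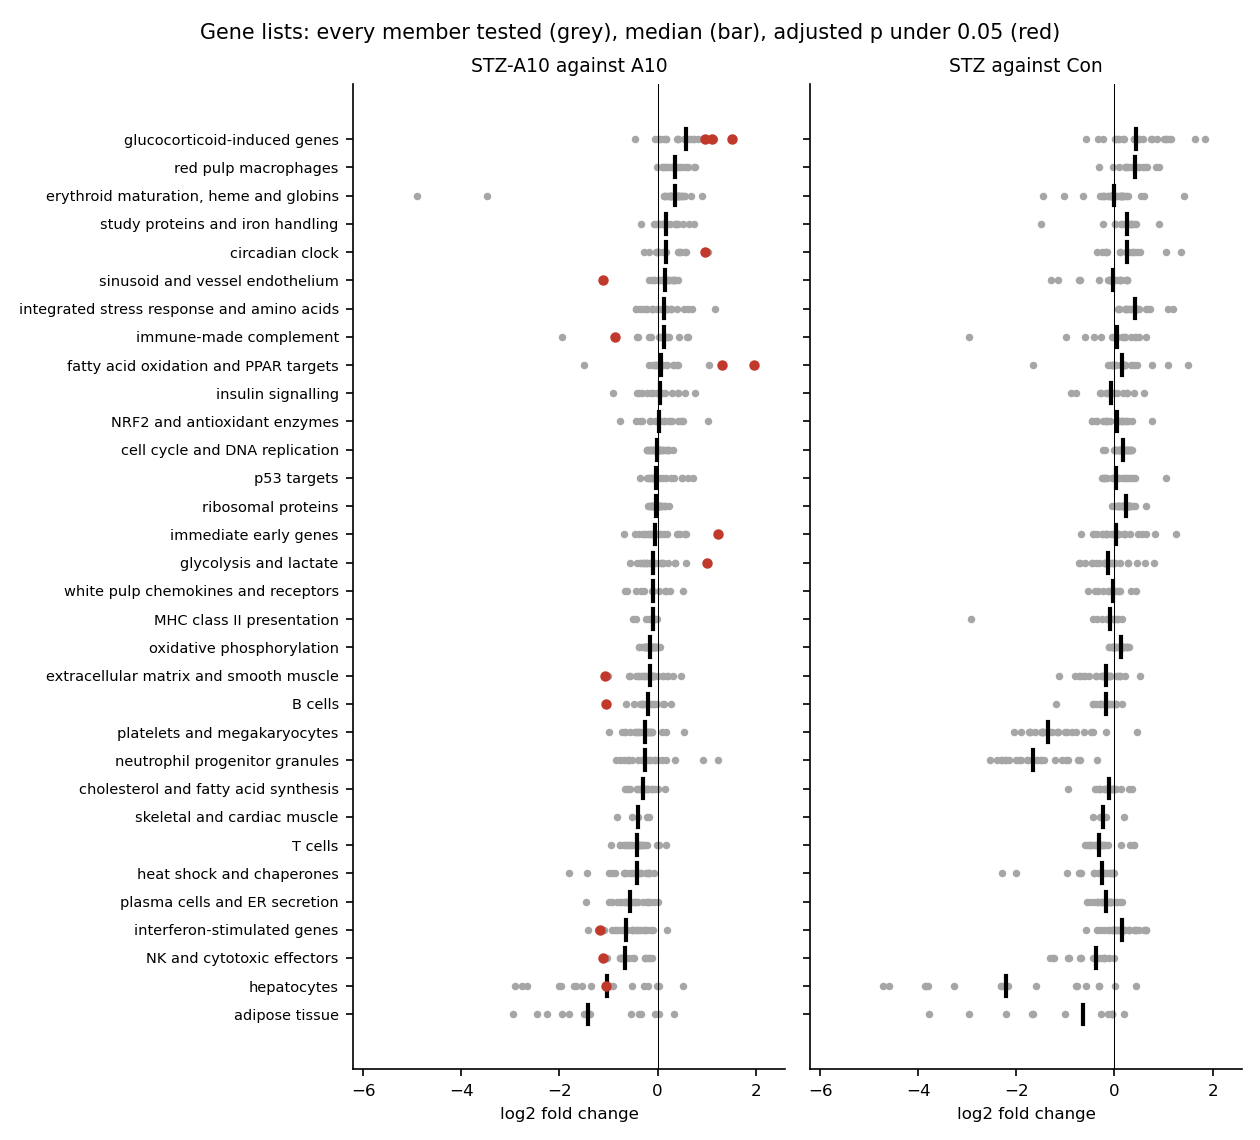
Log2 fold change of every tested member of 32 gene lists (exocrine pancreas left out) in STZ-A10 against A10 (left) and STZ against Con (right), with lists ordered by their median on the left. Grey points are genes, red points the genes past the threshold in STZ-A10 against A10, and black bars the medians. Glucocorticoid-induced genes stand at the top on the left with a median of 0.59, and NK genes stand near the bottom with -0.66.

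Myeloid genes went in both directions. Retnla (chr16:48842551-48844461, plus strand), also called RELM alpha or FIZZ1, is secreted by macrophages under IL-4 and by fat tissue. It was 11, 26.8 and 14.7 RPKM in A10 and 2.78, 3.56 and 3.31 in STZ-A10, which differ by -2.05 on the log2 scale (SE 0.28, adjusted p 0.0356). The A10 libraries varied, with replicate 2 the highest, while the STZ-A10 libraries lay close together. The fat cell gene Adipoq was 7, 20.4 and 10 against 3.8, 0.57 and 0.49 in the same libraries and had the order of Retnla in A10 but not in STZ-A10. The part of fat tissue in the Retnla values was not tested.

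Cxcl9, a chemokine induced by interferon gamma, was 14.2, 20.8 and 19.1 in A10 and 8.14, 7.74 and 6.16 in STZ-A10 (log2 fold change -1.18, SE 0.161, adjusted p 0.0356). Complement factor B, Cfb, also induced by interferon, was 68.9, 63.8 and 85.8 against 39.2, 37.9 and 40.4 (-0.87, adjusted p 0.0356). Aif1, the macrophage protein IBA1, was 45.3, 52.1 and 55.9 against 32.9, 27.3 and 27.2 (-0.79, adjusted p 0.0421). In these 3 genes every A10 library lay above every STZ-A10 library. Lgals1, a galectin of many immune and stromal cells, was 135, 140.4 and 123.2 against 76.2, 72.1 and 59.1 (-0.94, adjusted p 0.0255). Il4i1, an amino acid oxidase of antigen-presenting cells, was 51.9, 53.6 and 52.2 against 34, 32.9 and 28.5 (-0.71, adjusted p 0.0289). Against these, Ccl24, the eotaxin 2 of macrophages, was 4.28, 7.24 and 4.5 against 12.4, 15.2 and 14.6 and rose by 1.28 (SE 0.181, adjusted p 0.0391).

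Of 30 interferon-stimulated genes tested, 29 were lower, against 7177 of all 12467 genes, but the size rested on A10 replicate 3. The list summed to 1611, 1096 and 3309 RPKM in A10 and to 1159, 877 and 1296 in STZ-A10, so the groups overlap. The median log2 fold change was -0.64 with all libraries and -0.17 without A10 replicate 3. Ifit1, a typical member, was 9.12, 4.88 and 28.8 in A10 and 4.99, 3.26 and 5.25 in STZ-A10 (adjusted p 0.345). Cxcl9 is the member that passed, and its log2 fold change lay between -1.34 and -1.04 under all alternatives.

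Red pulp macrophage genes were mostly higher and none passed (limma). Of 19 tested, 18 were higher, 7 had an unadjusted p under 0.05 and the median was 0.35. Marco, a scavenger receptor of the marginal zone, was 38.4, 57.5 and 53.3 in A10 and 107, 67.3 and 81.7 in STZ-A10 (adjusted p 0.154). Itgad was 9.14, 11.3 and 10.9 against 16.8, 13 and 20.5 (adjusted p 0.158). Hmox1, heme oxygenase, was 216, 220 and 168 against 335, 281 and 253, and the iron exporter Slc40a1 was 54.3, 64.7 and 55.7 against 86.8, 67 and 73.4 (adjusted p 0.175 and 0.209). STZ-A10 replicate 1 held the highest value of Marco, Hmox1 and Slc40a1, and without it the list's median was 0.19.

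The study stained or blotted 7 proteins in the spleen, and their transcripts did not pass here. Its groups were others, STZ and Con among them, and it measured protein where the values here are RNA. It reported less CD163, CCL21, CCR7, Ki67, p53 and Bax protein after STZ. Cd163, the hemoglobin scavenger receptor, was 0.93, 1.94 and 0.86 in A10 and 3.8, 1.82 and 2.6 in STZ-A10 (log2 fold change 0.74, 95% interval 0.16 to 1.31, adjusted p 0.215), and the groups overlapped. Ccl21a, a T zone chemokine with near-identical copies in the genome, was 1227, 1164 and 1032 against 1949.5, 1282 and 1007 (0.26, interval -0.28 to 0.80, adjusted p 0.646). Its receptor Ccr7 was 54.1, 47.8 and 53.1 against 47, 41 and 34.3 (-0.35, interval -0.64 to -0.05, adjusted p 0.241). In the study's own pair, without AOS, Cd163 RNA was 1.28, 1.42 and 1.28 in Con and 2.96, 5.24 and 2.43 in STZ. The groups lay apart there with STZ higher (log2 fold change 0.92, unadjusted p 0.00418, adjusted p 0.346 by limma).

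Mki67, which encodes the proliferation marker Ki67, was 122.7, 127 and 108 against 73.6, 167 and 175 (0.12, interval -0.60 to 0.83, adjusted p 0.898). STZ-A10 replicate 1 was the lowest of the 6 libraries and the other two STZ-A10 libraries were the highest. The p53 gene Trp53 was 88.9, 81.6 and 91.5 against 108, 97.4 and 78.6 (0.11, interval -0.19 to 0.40, adjusted p 0.745). Bax, which opens mitochondria in apoptosis, was 75, 72.9 and 80.7 against 84.9, 64.7 and 74.8 (-0.03, interval -0.30 to 0.23, adjusted p 0.925). Bcl2l1, which encodes the survival protein Bcl-xL, was 52.9, 50.1 and 37.7 against 38.7, 65.8 and 91.7 (0.40, interval -0.28 to 1.08, adjusted p 0.555), with overlapping groups, and was added after its values were seen. Of the 19 tested genes on the list of study proteins and iron handling, 0 passed (limma), 4 were higher and 1 lower at an unadjusted p under 0.05. In STZ against Con 18 of the list were tested, with 3 higher and 0 lower at such a p.

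Chaperone genes were lower as a group, and none passed (limma). Chaperones fold newly made proteins, and those of the endoplasmic reticulum (ER) serve secretion, above all in plasma cells. On the heat shock and chaperone list 24 of 24 tested genes were lower, 18 with an unadjusted p under 0.05, with a median of -0.43. On the list of plasma cell and ER secretion genes 23 of 24 were lower, 18 with an unadjusted p under 0.05, with a median of -0.56. Of all genes 10.6% were lower with such a p. In STZ against Con the heat shock list had a median of -0.26 and the plasma cell and ER list -0.17. On each, 1 of 24 genes was lower with such a p, against 4.63% of all genes. The plasma cell and ER list summed to 3843, 3157 and 3898 RPKM in A10 and 2962, 2208 and 2113 in STZ-A10. Without AOS it summed to 1915, 2821 and 2110 in Con and 2204, 1613 and 1876 in STZ. Hspa5 and Hsp90b1 are on both lists.

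Hsp90b1, the ER chaperone GRP94, was 549, 440.3 and 603 RPKM in A10 and 315, 252 and 265 in STZ-A10 (log2 fold change -0.93, SE 0.145, adjusted p 0.0504), at the edge of the threshold. Hspa5, the ER chaperone BiP, was 288, 269 and 320.2 against 217, 204 and 224 (-0.44, adjusted p 0.11). Creld2 was 77, 54.3 and 87.6 against 46, 28.3 and 34.8 (-0.98, adjusted p 0.109), and the calcium-binding chaperone Calr was 393, 327 and 417 against 286, 244 and 258 (-0.52, adjusted p 0.116). The A10 libraries kept 1 order in all 4 genes, with replicate 3 the highest and replicate 2 the lowest. Jchain, which joins secreted antibodies of plasma cells, was 966, 838 and 903 against 748, 490.2 and 431 (-0.74, adjusted p 0.161). Among genes of the secretory path, Tmed5, a cargo receptor between ER and Golgi, did pass. It was 20.3, 18.5 and 20.8 in A10 and 12.3, 11.5 and 11.7 in STZ-A10 (log2 fold change -0.70, SE 0.0884, adjusted p 0.0262).

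ER chaperone promoters are known for the ER stress element, read by ATF6, in which CCAAT and CCACG are set 9 bases apart. Both strands were searched for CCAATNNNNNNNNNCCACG. It was found in 7 of the 21 genes of the plasma cell and ER list that have a promoter in the table, against 0.183% of 9812 tested genes and 0.119% of all promoters. The promoter of Hspa5 is shown whole as the best-known case (GRCm38.p6, chr2:34771840-34772139, plus strand), with capitals for the fixed letters.
Hspa5: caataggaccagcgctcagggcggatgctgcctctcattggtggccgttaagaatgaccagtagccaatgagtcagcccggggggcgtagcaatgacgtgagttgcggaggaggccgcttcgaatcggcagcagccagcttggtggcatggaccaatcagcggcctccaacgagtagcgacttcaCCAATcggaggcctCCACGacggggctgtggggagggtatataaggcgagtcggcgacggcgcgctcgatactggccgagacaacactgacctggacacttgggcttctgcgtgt
The matches of all 7 genes follow with 8 bases on either side, each read on the strand that carries CCAAT first, with Hsp90b1 holding 2.
Derl3 chr10:75893234-75893268: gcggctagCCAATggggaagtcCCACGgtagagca
Creld2 chr15:88819512-88819546: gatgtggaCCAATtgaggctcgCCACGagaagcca
Hspa5 chr2:34772017-34772051: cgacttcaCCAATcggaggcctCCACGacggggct
Pdia6 chr12:17266483-17266517: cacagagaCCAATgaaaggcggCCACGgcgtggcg
Dnajc3 chr14:118937819-118937853: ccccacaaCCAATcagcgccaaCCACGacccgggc
Calr chr8:84847067-84847101: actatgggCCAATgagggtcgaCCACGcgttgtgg
Hsp90b1 chr10:86705630-86705664: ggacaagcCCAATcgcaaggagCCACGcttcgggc
Hsp90b1 chr10:86705525-86705559: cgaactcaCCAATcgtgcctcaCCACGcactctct
These 7 genes had a median log2 fold change of -0.62, and the 14 others of the list with a promoter had -0.46, given as a description. Pdia6, a disulfide isomerase, was 135, 111 and 144 in A10 and 97.5, 80.3 and 75.3 in STZ-A10 (adjusted p 0.109).

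The cytosolic heat shock genes showed the largest differences of the chaperones and the widest spread. Hspa1b was 14.6, 17.1 and 28.7 in A10 and 3.61, 3.88 and 7.63 in STZ-A10 (log2 fold change -1.81, adjusted p 0.0613), and its near-identical neighbour Hspa1a was 5.65, 5.85 and 11.3 against 1.5, 1.52 and 3.56 (-1.43, adjusted p 0.104), with reads that the counting could have split between them. Within each group the library numbered 3 was the highest, although the groups did not overlap. Hsp90aa1 was 391, 472 and 511 against 249.8, 278 and 342 (-0.66, adjusted p 0.115). The summed RPKM of the heat shock and chaperone list was 4190.4, 4281 and 5106 in A10 and 3176, 2954 and 3500.4 in STZ-A10. It was highest in the library numbered 3 in 6 of 6 groups of the series, whose labels do not say what a number shares. In a fit with the number as a replicate block the adjusted p (limma) was 0.00307 for Hspa1b, 0.00737 for Hspa1a, 0.0377 for Hsp90b1, 0.069 for Hsp90aa1 and 0.179 for Hspa5. The heat shock element (GAA, TTC and GAA, each set 2 bases apart) was found in 4 of 19 genes of the list with a promoter (Hsph1, Hspd1, Hspe1 and Chordc1, of which Hspd1 and Hspe1 share 1 promoter region) and in 0.52% of tested genes.

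Matrix and growth factor genes that fell include Postn and Igfbp2. Postn (chr3:54361109-54391037, plus strand), periostin, a matrix protein of fibroblasts, was 12, 14.6 and 11.2 in A10 and 5.73, 4.67 and 6.01 in STZ-A10 (log2 fold change -1.07, SE 0.133, adjusted p 0.026). Igfbp2 (chr1:72824503-72852474, plus strand), which binds insulin-like growth factors, was 13.6, 13.8 and 12.4 against 4.22, 6.03 and 6.9 (-1.10, SE 0.158, adjusted p 0.0391). The fibrillar collagen Col3a1 was 24.9, 38.1 and 31.9 against 15.9, 17 and 12.6 (-1.002, adjusted p 0.0613). Igfbp3, which is on the list of insulin signalling, was 83.3, 87.9 and 74.2 against 179, 139.8 and 107 (0.76, adjusted p 0.121) and so had the opposite sign to Igfbp2. Of 28 tested matrix and smooth muscle genes, Postn alone passed, and the median was -0.15. Epcam, an adhesion molecule of epithelium and of some dendritic cells, was 6.04, 4.69 and 6.91 against 2.46, 2.3 and 1.67 (-1.13, adjusted p 0.0391).

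The lists of platelets, neutrophil progenitors and erythroid cells gave no gene past the adjusted threshold (limma). Of 29 platelet and megakaryocyte genes 26 were lower, with a median of -0.26, with 8 lower and 1 higher at an unadjusted p under 0.05. Ppbp, a platelet chemokine, was 327, 506 and 293 in A10 and 137, 271 and 165 in STZ-A10 (adjusted p 0.18), and Gp6, the collagen receptor, was 9.6, 12.1 and 9.06 against 5.09, 7.29 and 5.07 (adjusted p 0.109). Of 24 neutrophil progenitor genes 18 were lower, 3 with such a p, with a median of -0.26. Of all genes 10.6% were lower with such a p, so 3 of 24 is near that share. Of 37 erythroid genes 35 were higher, 2 with such a p, with a median of 0.35 that was 0.09 without STZ-A10 replicate 3 and 0.78 without STZ-A10 replicate 1. These 2 of 37 are near the 5.17% of all genes that were higher with such a p. Car1, carbonic anhydrase 1, was 289.9, 285 and 167 against 422, 537 and 402 (0.90, adjusted p 0.138). The globins Hbb-bs and Hbb-bt, near-identical copies carried by only some mouse haplotypes, differed widely within a group: Hbb-bs was 546, 63.4 and 8414 in A10 and 102, 15.3 and 5.61 in STZ-A10, and the counting could have split reads between the copies.

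RNA of other organs moved with the groups, and its size has to be known beside every result above. Of 36 genes on the exocrine pancreas list 33 passed the filter on low values, and these 33 were higher in every STZ-A10 library than in any A10 library, with a median log2 fold change of 4.18. Many are near 0 in A10 and passed the filter only through STZ-A10, so that their count is no measure of how regularly the list moved. The list summed to 71.0, 1113 and 689 RPKM in A10 and to 8617, 9341 and 13659 in STZ-A10. Try5, a trypsinogen, was 1.22, 31.8 and 25 in A10 and 1011, 1027 and 1658 in STZ-A10 (log2 fold change 6.60, SE 0.926, adjusted p 0.0388), although trypsinogens are near-identical copies whose reads can be split. Reg3b, an antibacterial lectin of stressed acinar cells, was 0, 1.48 and 0.69 against 31.2, 39.9 and 79.8 (4.88, adjusted p 0.0118). Spink1, a trypsin inhibitor, was 0, 0.78 and 0.26 against 13.6, 10.9 and 19.2 (3.54), and it passed the filter only through STZ-A10.

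Of the 12 list members that passed, the others include Prss3, Gp2, Reg3a, Try10, Cuzd1, Pnliprp2, Pla2g1b and Reg2. A further 5 genes past the threshold were recognised as made by the pancreas after their values were seen, Dmbt1, 1810009J06Rik, Pdia2, Aqp12 and Reg3d. For 1810009J06Rik the A10 libraries were listed at 0 and the STZ-A10 libraries at 8.42, 41.7 and 19.4. The tail of the pancreas lies against the spleen, and the sources used here do not say how the organs were parted. No gene of the endocrine pancreas list of 12 reached the filter, and the list summed to 0.32 to 0.55 RPKM in all 6 libraries.

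Pancreatic RNA and the fuel genes can be set side by side within a group. In A10 the exocrine sum was 71.0, 1113 and 689 RPKM, and Pdk4 had the same order at 2.67, 2.97 and 2.86. Txnip had another order, at 158.5, 149.9 and 159. These A10 sums all lie below the 8617 of the lowest STZ-A10 library, so they do not reach that level. In STZ-A10, replicate 3 held the most pancreatic RNA, as it did of Pdk4, while Errfi1, Mt2 and Txnip were highest in replicate 1. Beyond these values the part of pancreatic RNA in the spleen genes was not tested.

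The lists of liver and fat genes were lower in STZ-A10. Hepatocyte genes summed to 448, 386 and 301 RPKM in A10 and 261, 199 and 191 in STZ-A10, and 15 of 20 tested, out of 40 listed, had an unadjusted p under 0.05 with STZ-A10 lower. Albumin (Alb) was 25.2, 14.9 and 2.84 against 2.79, 0.25 and 0.1 (adjusted p 0.158). Much of the hepatocyte sum was Serpina1b, at 147, 133 and 147 against 112, 96.7 and 89.1. In A10 it did not have the order of albumin, so the sum is no plain measure of liver RNA. Ass1, argininosuccinate synthase, was the member that passed, at 37.4, 31.6 and 39.2 in A10 and 18, 16.4 and 16.3 in STZ-A10 (log2 fold change -1.05, SE 0.106, adjusted p 0.0147). In A10 Ass1 was highest in replicate 3, where albumin was lowest, while in STZ-A10 it had the order of albumin. The part of liver RNA in the Ass1 values was not tested. Adipose genes summed to 304, 651 and 374 in A10 and 290.3, 172 and 156 in STZ-A10. Of 20 listed, 14 passed the filter and 10 had an unadjusted p under 0.05 with STZ-A10 lower. Adipsin (Cfd) was 29.4, 85.5 and 51.4 against 27.1, 8.92 and 7.59 (adjusted p 0.15). The adipose markers Adipoq and Plin1 were highest in A10 replicate 2. Kidney genes summed to at most 1.62 RPKM in any of the 6 libraries.

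**Figure D4:**
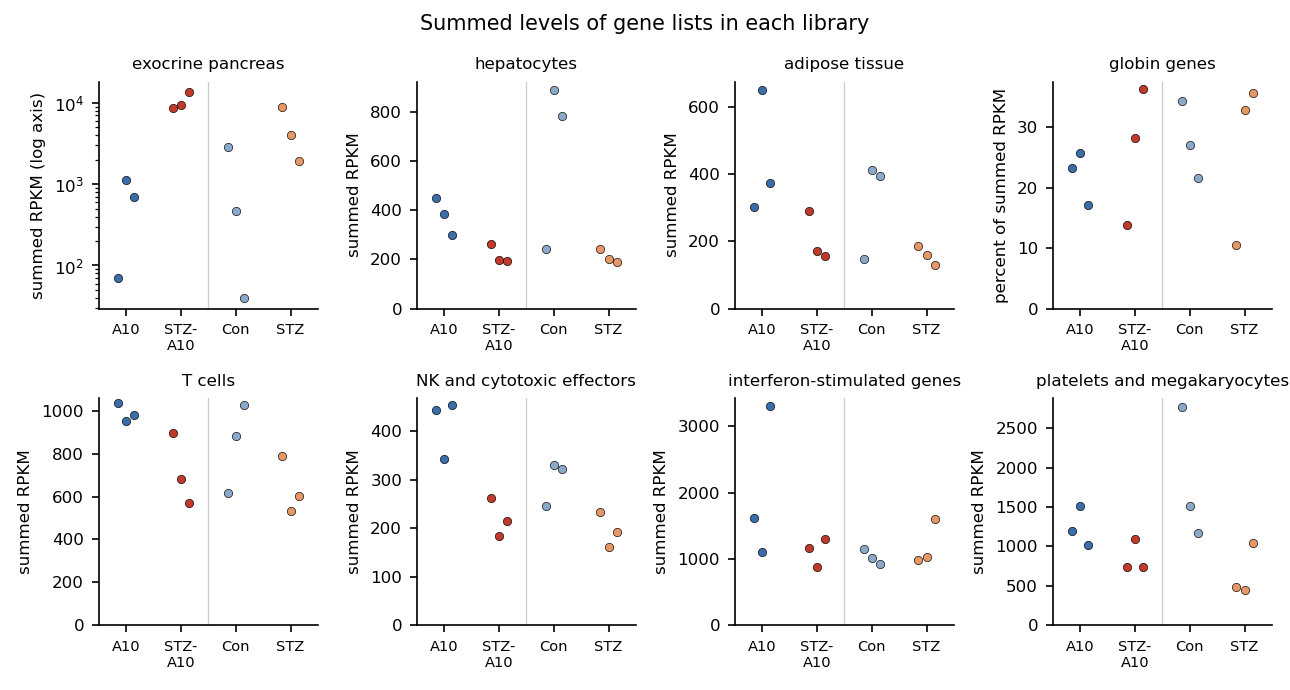
Summed RPKM of gene lists of other organs (upper row, first 3 panels), the share of the 6 globin genes in percent, and lists of T cells, NK cells, interferon-stimulated genes and platelets (lower row), with a point per library. The exocrine pancreas axis is logarithmic and the others start at 0. STZ-A10 lies above A10 for pancreas and below it for NK cells, while A10 replicate 3 stands out among interferon-stimulated genes at 3309.

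STZ against Con, the same treatment without AOS, was fitted alone in the same way over 12380 genes, and 0 passed the adjusted threshold in either direction (0% higher and 0% lower). Before adjustment 387 (3.13%) had a p under 0.05 with STZ higher and 573 (4.63%) with STZ lower, and the smallest p after adjustment was 0.141. Without Con replicate 1 there were 36 calls. The SE of the log2 fold change of Pdk4 was 0.369 there and 0.114 in STZ-A10 against A10. Con replicate 2 differed from the others among genes that few libraries list above 0. It held 293 of those looked at, against 45 to 73 in the A10 and STZ-A10 libraries. Its testis germ cell genes summed to 374 RPKM, against 74.7 in Con replicate 1 and 48.5 in Con replicate 3.

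The genes past the threshold in STZ-A10 against A10 were looked up there, in other libraries. Of the 66, 65 were tested in both, and 65 of 65 had the same sign. Of all 12262 genes tested in both, 67.5% had the same sign. In STZ against Con 50 of the 65 (76.9%) also had an unadjusted p under 0.05 in the same direction, against 6.86% of all genes. Leaving out the genes on lists of other organs, the counts were 52 of 52 with the same sign and 38 with such a p. Leaving out also the genes recognised as made by the pancreas after their values were seen, they were 48 of 48 and 34. Of the genes that rose the share was 31 of 35, and of those that fell 19 of 30. These counts were not redone without the genes that passed the filter on low values only through 1 group. Map3k6, Peg3, Lbhd2 and Cd300c are such genes among the 48, and for them the counts are no support. Across genes, which are not independent replicates, the log2 fold changes of both comparisons correlated with r = 0.702, or 0.584 without the genes on lists of other organs.

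**Figure D5:**
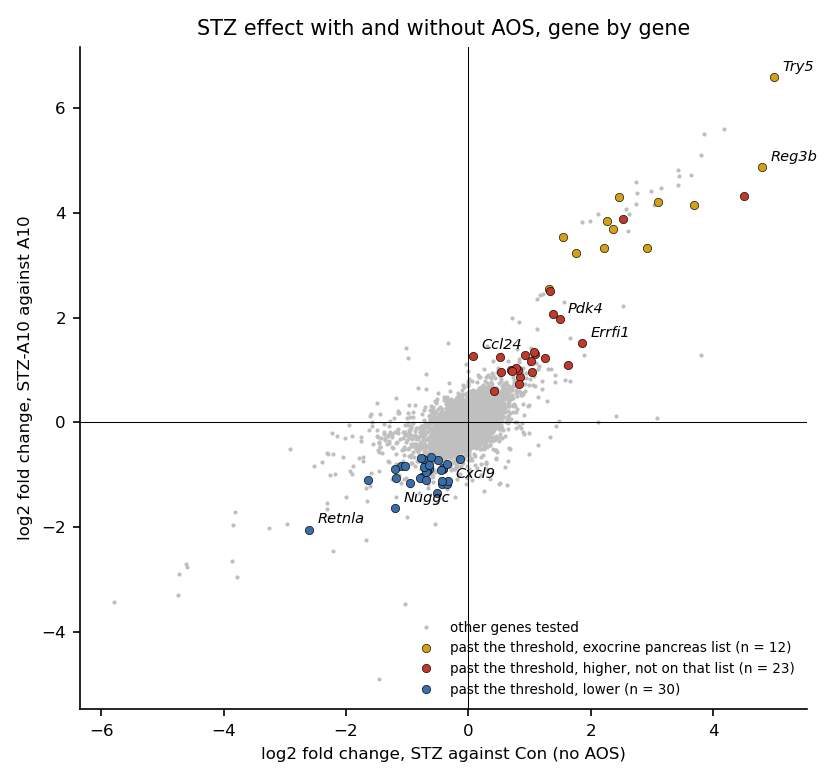
Log2 fold change of each gene in STZ-A10 against A10 (vertical) and in STZ against Con (horizontal). Grey points are all genes tested in both, and colored points (yellow for 12 on the exocrine pancreas list, red for 23 others that rose, blue for 30 that fell) are the 65 genes past the threshold in STZ-A10 against A10 that were tested in both. All 65 lie in the quadrants of equal sign, with Try5 and Reg3b at the top right, Retnla at the bottom left and Ccl24 nearest to the vertical axis.

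The genes described above can also be read without AOS. Pdk4 was 1.71, 2.88 and 2.65 RPKM in Con and 10.1, 13.9 and 4.13 in STZ (log2 fold change 1.49, unadjusted p 0.0039). Acot1 was 1.39, 1.77 and 1.81 in Con and 5.67, 4.08 and 4.27 in STZ (1.09, unadjusted p 0.000206). Ier3 was 4.28, 4.46 and 4.54 in Con and 9.71, 15 and 11.6 in STZ (1.25, unadjusted p 9.29e-05). For these 3 genes STZ and Con did not overlap. Txnip overlapped, at 103, 140 and 225 in Con and 337, 253 and 206 in STZ (0.81, unadjusted p 0.0263). Among the lower genes, Retnla was 4.79, 17.5 and 12.7 in Con and 1.4, 0.9 and 0.45 in STZ (-2.60, unadjusted p 0.000236), and Igfbp2 was 14.3, 17.5 and 11.8 in Con and 4.57, 1.96 and 6.4 in STZ (-1.63, unadjusted p 0.00103). Fcer2a was 79.1, 91.9 and 142 in Con and 71.7, 27.3 and 42.9 in STZ (-1.19, unadjusted p 0.00959). The germinal centre gene Nuggc was 3.46, 6.81 and 1.88 in Con and 0.88, 1.19 and 1 in STZ (-1.20, unadjusted p 0.0067), with Con below the A10 level of 6.75 to 9.16 in 2 of 3 libraries.

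The test of the difference between both effects, fitted over 12 libraries and 12773 genes, called 0 genes at the adjusted threshold (0%), with a smallest adjusted p of 0.9998. Before adjustment 394 genes (3.08%) had a p under 0.05. The 66 genes were chosen by STZ-A10 against A10, which is 1 side of this difference, so counts among them do not measure it. Of the 65 tested in both, 51 had a smaller fold change in STZ against Con and 14 a larger one. Of the 66 genes, 7 had an unadjusted p under 0.05 for the difference. Among them, the log2 fold changes with and without AOS were -1.18 and -0.35 for Cxcl9 (p of the difference 0.0327), -1.13 and -0.33 for Epcam (p 0.00552) and -1.11 and -0.43 for Ccl5 (p 0.049), all unadjusted. Ccl24, at 1.28 and 0.08, was not among the 7 (p 0.177). None holds after adjustment. A difference that misses the threshold does not show that STZ acted alike with and without AOS.

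Lists set side by side showed where levels departed. The platelet list had a median of -0.26 in STZ-A10 against A10 and -1.36 in STZ against Con. Its genes summed to 2766 RPKM in Con replicate 1, against 1515 and 1171 in Con replicates 2 and 3. For the difference, 12 of its 29 genes had an unadjusted p under 0.05 (limma), against 3.08% of all genes. The neutrophil progenitor list had medians of -0.26 and -1.67, with 1 of 24 such genes, and Con replicates 1 and 2 held 17518 and 4842 summed RPKM of these genes against 965 in Con replicate 3. The interferon-stimulated list had medians of -0.64 and 0.15, with 6 of 30 such genes, and the first was -0.17 without A10 replicate 3. The glucocorticoid list had 0.59 and 0.44, and the red pulp macrophage list 0.35 and 0.41, with 0 such genes in either. NK genes had -0.66 and -0.38, and T cell genes -0.42 and -0.32. Kap, an androgen-regulated gene of kidney, was 13.3, 20.1 and 21 RPKM in Con and 23.7, 25.9 and 20.9 in STZ but at most 0.6 in A10 and STZ-A10. That split runs between these pairs of groups and not between STZ and its control in either pair.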

How the data were processed

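Spleen mRNA of ICR mice was sequenced by the study on an Illumina HiSeq instrument, and the authors deposited 1 table of RPKM values for 18 libraries. The study's methods name SOAPaligner and the submitters' processing notes name Bowtie 0.12.2 and the mm10 genome. Which gave the table is not stated. It holds no read counts, so the depth is unknown and no counting interval is given. Of 19326 lines, 6 with repeated names were left out, and 26 other names read as calendar dates.

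Genes with at least 1 RPKM in at least 3 of the 6 libraries were fitted on log2(RPKM + 1) with limma 3.58.1 (trend, R 4.3.3) and adjusted over all 12467 genes by Benjamini-Hochberg. STZ against Con was fitted alike, and the difference of both effects over 12 libraries. The script was tested on simulated data. Groups follow the treatment labels. Intervals are 95%. Sums over lists were compared by exact permutation tests, two-sided.

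The genes named were drawn from the 10 with the largest fold change in each direction among those past the threshold with a mean of at least 5 RPKM, up to 4 of each of 38 lists by p, and 6 of the transcripts whose proteins the study measured in the spleen. Other genes were added for their role after their values were seen. Comparison, lists and rule were chosen with earlier results of these data known. Gene positions are from GENCODE M21 (GRCm38), promoters from RefSeq (GRCm38.p6). Alternatives were other scalings, filters, pseudocounts and fits, and leaving out each library.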

Additional observations from a re-analysis of the deposited data

How the results depend on the processing

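With 3 libraries a group, the number of calls moved far more than the values did. Against the 66 genes past the threshold in STZ-A10 against A10, there were 7 in 1 fit over all 18 libraries, 15 with no filter on low values, 41 with 1 RPKM required in every library, 41 with a log2 fold change of at least 1 in size, 100 without globin genes and 4724 with array weights, which gave libraries unequal weight. Leaving out each library in turn gave 3 to 1105. Of the 66, all that could be fitted kept their direction under each of these alternatives, and 47 could be fitted with the stricter filter. For the fits that leave out a library this was certain beforehand, because the groups lay apart in all 66. For STZ against Con, which had 0 calls, there were 22 in the fit over all libraries, 2 with quantile normalization and 8067 with array weights, and 0 to 36 when each library was left out. The difference between both effects gave 1083 with array weights. The correlation of both effects across genes, 0.702, was 0.597 with the stricter filter and 0.564 to 0.740 when each library was left out.

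Same-numbered libraries of A10 and STZ-A10 deviated from their group means with r of 0.039, 0.084 and -0.038, so that over all genes the numbers do not pair them, although the summed heat shock genes were highest in the library numbered 3 in every group. The fit with a replicate block called 120 genes, 56 of the 66 among them.

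Of 141 genes named, 3 changed sign under some alternative, none of them past the threshold with all 6 libraries equally weighted. With array weights the adjusted p (limma) was 0.0218 for Bax and 0.0145 for Mki67, and without STZ-A10 replicate 1 it was 0.028 for Mki67. Bax was 0.034 with quantile normalization, 0.004 without globin genes and -0.128 to 0.065 when each library was left out. In the same way Ccl21a ran from -0.003 to 0.474 and Mki67 from -0.099 to 0.521. Of 35 lists, 26 kept the sign of their median under all alternatives. The cause of these changes was not tested. Low genes are limited by an unknown depth.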

Other observations

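Genes of lipid synthesis and of mitochondria were mostly lower in STZ-A10, each by little. Of 25 tested genes of cholesterol and fatty acid synthesis 23 were lower, 10 of them at an unadjusted p under 0.05 and 0 past the adjusted threshold (limma), with a median log2 fold change of -0.30. Of all 12467 genes 7177 were lower, and 10.6% were lower with such a p. Cyp51, which removes a methyl group from lanosterol, was 11.2, 10.4 and 9.98 RPKM in A10 and 5.95, 7.25 and 6.15 in STZ-A10 (-0.63, adjusted p 0.0611). Insig1, which holds the pathway's regulator in the ER, was 16.9, 17 and 16.7 against 12, 14.9 and 10.8 (-0.41, adjusted p 0.189). Of 34 genes of oxidative phosphorylation 32 were lower, 10 with such a p and 0 past the adjusted threshold, with a median of -0.14, while STZ against Con had a median of 0.12. Cycs, cytochrome c, was 38.7, 41 and 44.4 against 29.9, 33.9 and 30.5 (-0.39, adjusted p 0.126). Ribosomal protein genes had a median of -0.02 over 36 genes, with 0 at such a p.

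Stress programmes split among their members. In the integrated stress response list (24 tested, median 0.14, 0.42 in STZ against Con) 6 genes were higher and 3 lower at an unadjusted p under 0.05, and 7 had such a p for the difference between both effects. Nupr1, a chromatin protein of stressed cells that is strong in the exocrine pancreas, was 17.6, 25.5 and 20.6 in A10 and 42.8, 39.9 and 66.7 in STZ-A10 (1.17, adjusted p 0.0682). Asns, asparagine synthetase, was 30.2, 31.9 and 25.7 against 35.2, 58.1 and 53.9 (0.70, adjusted p 0.158), and Trib3, a pseudokinase induced by ATF4, was 1.38, 0.79 and 0.72 against 1.44, 2.63 and 2.07 (0.63, adjusted p 0.195). Of 21 tested p53 targets 3 were higher and 2 lower at such a p, with a median of -0.02, and of 23 NRF2 and antioxidant genes 2 were higher and 3 lower, with a median of 0.03. Insulin signalling genes had a median of 0.06 over 19 tested, with 3 higher and 3 lower. Irs2, an adaptor of the insulin receptor that insulin itself holds down, was 4.48, 3.82 and 4.98 against 5.5, 6.09 and 7.02 (0.41, adjusted p 0.197). The 12 genes of MHC class II presentation were lower with a median of -0.10, 1 at such a p. Immune-made complement genes had a median of 0.13 over 19 tested, with 2 higher and 4 lower, and C2, the partner of Cfb in the genome, was 18.8, 19.9 and 24 against 18.3, 14.1 and 14.1 (-0.41, adjusted p 0.213). Apart from Cfb, none of the genes named in these observations passed the adjusted threshold.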
